A study of Mus musculus with 12 samples.

Results

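The genes of the mitochondrial protein import machinery were followed in 12 mouse RNA libraries. The members were the table rows whose symbol starts with Timm or Tomm followed by a digit, plus Pam16, Dnajc19, Grpel1, Hspa9, Hspd1, Hspe1, Samm50, Mtx1 and Mtx2. This gave 34 genes of the 25655 listed, spread over 17 chromosomes. The libraries form 4 groups of 3. Control brain and CKO brain are whole brains of embryonic day 15, and control and CKO neurospheres are floating clusters of neural stem cells grown from the forebrain of embryonic day 16. Controls carry the genotype label Wildtype and fy/- in their titles, and CKO libraries the genotype label (P)RR_CKO and fy/cre. In the CKO the gene of the (pro)renin receptor, Atp6ap2, whose product also assists the V-ATPase proton pump, is deleted in neural stem cells, and how many cells of a whole brain that reached is not known from the labels. All libraries are labelled C57BL/6J and male. Neither the driver of the Cre nor whether replicates came from separate embryos, litters or cultures is given in the sources used here, so p-values measure only the spread between these libraries.

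Nearly all mitochondrial proteins are made in the cytosol and have to be carried across the mitochondrial membranes. The TOM complex is the gate of the outer membrane, SAM folds barrel proteins into that membrane, and the small TIM chaperones ferry hydrophobic cargo through the space between the membranes. TIM22 inserts carrier proteins into the inner membrane, TIM23 passes proteins with a leader peptide, and the PAM motor built around the Hsp70 protein Hspa9 pulls these into the matrix, where the Hspd1 and Hspe1 chaperonin folds them. Neural progenitors rely on this route for every nuclear-encoded respiratory and matrix protein they make as they grow and divide. Of the 34 members, 9 belong to TOM, 3 to SAM, 7 to the small TIMs, 2 to TIM22, 5 to TIM23, 5 to PAM and 2 to the chaperonin, and Tomm34 is a cytosolic cochaperone that works with TOM.

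RefSeq promoter windows of GRCm38.p6, here the 250 bases before an annotated start, were found for 30 members, and 3 are shown because these genes rose in CKO neurospheres and their windows hold unlike elements. Hspe1 is shown for a heat shock element (units TTC, GAA and TTC with NN between each) that overlaps ETS motifs (CCGGAAG), Timm23 for a lone ETS motif, and Tomm40 for its repeated CCAAT boxes. Capitals mark the motif letters, found on either strand, and every window is written 5′ to 3′ on the strand of its gene.
Hspe1, chr1:55087898-55088147, plus strand: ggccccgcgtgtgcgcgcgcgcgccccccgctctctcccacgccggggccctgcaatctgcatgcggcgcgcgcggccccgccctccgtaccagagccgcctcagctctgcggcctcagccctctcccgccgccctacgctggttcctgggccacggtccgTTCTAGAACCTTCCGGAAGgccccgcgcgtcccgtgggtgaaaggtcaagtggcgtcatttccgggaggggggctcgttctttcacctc
Timm23, chr14:32201892-32202141, minus strand: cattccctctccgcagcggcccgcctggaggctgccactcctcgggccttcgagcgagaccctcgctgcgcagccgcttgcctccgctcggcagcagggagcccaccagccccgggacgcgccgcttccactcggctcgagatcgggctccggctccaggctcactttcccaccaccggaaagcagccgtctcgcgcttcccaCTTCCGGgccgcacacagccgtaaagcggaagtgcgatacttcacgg
Tomm40, chr7:19715430-19715679, minus strand: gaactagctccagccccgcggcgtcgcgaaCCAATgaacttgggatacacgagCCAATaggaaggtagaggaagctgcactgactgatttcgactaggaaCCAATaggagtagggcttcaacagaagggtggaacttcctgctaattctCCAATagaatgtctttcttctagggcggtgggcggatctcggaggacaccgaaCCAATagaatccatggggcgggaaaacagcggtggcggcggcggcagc
In the Hspe1 window 2 overlapping matches to the heat shock element and 2 to the ETS motif lie between 89 and 71 bases before the start. Hspe1 and Hspd1 are read away from each other: the Hspe1 start lies 216 bases from one annotated Hspd1 start, inside the shown window, and a further Hspd1 start lies 95 bases within the Hspe1 transcript.

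The ETS motif stood before 13 of the 30 members with a window (43.3%), against 7.83% of the 27025 genes with a window. The heat shock element stood before 3 members (10.0%), Hspd1, Hspe1 and Timm9, against 0.51% of all genes. The window of the Hspd1 start 216 bases from that of Hspe1 covers the matches of the Hspe1 window. The same stretch thus counts for both genes, for the heat shock element and for the ETS motif. An NRF1 motif (GCGC, then N, then TGCGC) was found before 3 members (10.0%, against 4.23%), an E-box (CACGTG) before 5 (16.7%, against 6.86%) and an ATF4 composite element (TGATGNAA) before 0 (against 3.91%). CCAAT boxes, a motif added after the Tomm40 window had been read, were before 10 members (33.3%, against 37.49%). Tomm40 has 5 of them, a number that 67 genes (0.248%) reach. A gene counted if any of its windows held the motif, so genes with several annotated starts had more bases searched. All motifs were searched on both strands. These are matches of letters only, and windows were not matched for base composition.

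The brain libraries held 5669338 to 6675874 exon reads and the neurosphere libraries 12382975 to 18636787 exon reads. The intron share of the reads was 63.8 to 65.5% in brain and 7.64 to 14.06% in neurospheres. One neurosphere library stood apart before any test: control 1 is labelled male but held 1 read over 4 Y-linked genes, where the other 5 neurosphere libraries held 1767 to 2992, and it differed from control 2 and control 3 by 57.8 and 50.9 chi-square units per degree of freedom, against 5.72 between those. CKO 1 also stood apart in its group, at 30.6 and 37.4 from CKO 2 and CKO 3, against 12.3 between those. The member counts are therefore also given without either library and without both. Atp6ap2 was lower in CKO neurospheres (log2 fold change -0.81 ± 0.11, SE, n = 3 per group; edgeR adjusted p = 0.00965) and did not pass the test in CKO brain (-0.12 ± 0.09; adjusted p = 0.792). Of the 34 members, 32 passed the filter on low counts in every comparison. Timm8a2, a second mouse copy of Timm8a1, had 0 to 2 reads a library, and Tomm20l, a relative of the receptor Tomm20, had 0 or 1, so neither was tested.

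The first comparison asks how import genes differ between neurospheres that lack the receptor and control neurospheres. In CKO neurospheres 19 of 32 tested members (59.4%) rose and 0 fell, where 14.7% of the 13316 genes tested were called higher and 12% lower. The risers were 6 of 8 TOM subunits, 3 of 3 SAM subunits, 3 of 6 small TIMs, 3 of 5 TIM23 subunits, 2 of 5 PAM subunits and both chaperonin genes, while 0 of 2 TIM22 subunits passed the test. Their rise was 1.28-fold to 2.24-fold. The median log2 fold change of the 32 was 0.42, against -0.02 over all genes tested, and the 3 libraries of each group did not overlap for 21 members, all higher in CKO, where 25.3% of all genes did not overlap and were higher and 22.8% did not overlap and were lower. The exon reads of all members together summed to 2223 to 2356 normalised CPM (exon reads scaled by library size and TMM factors) in controls and to 3493 to 3669 in CKO. In RNA from whole spheres, more cells of one kind and more RNA per cell cannot be told apart.

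**Figure D1:**
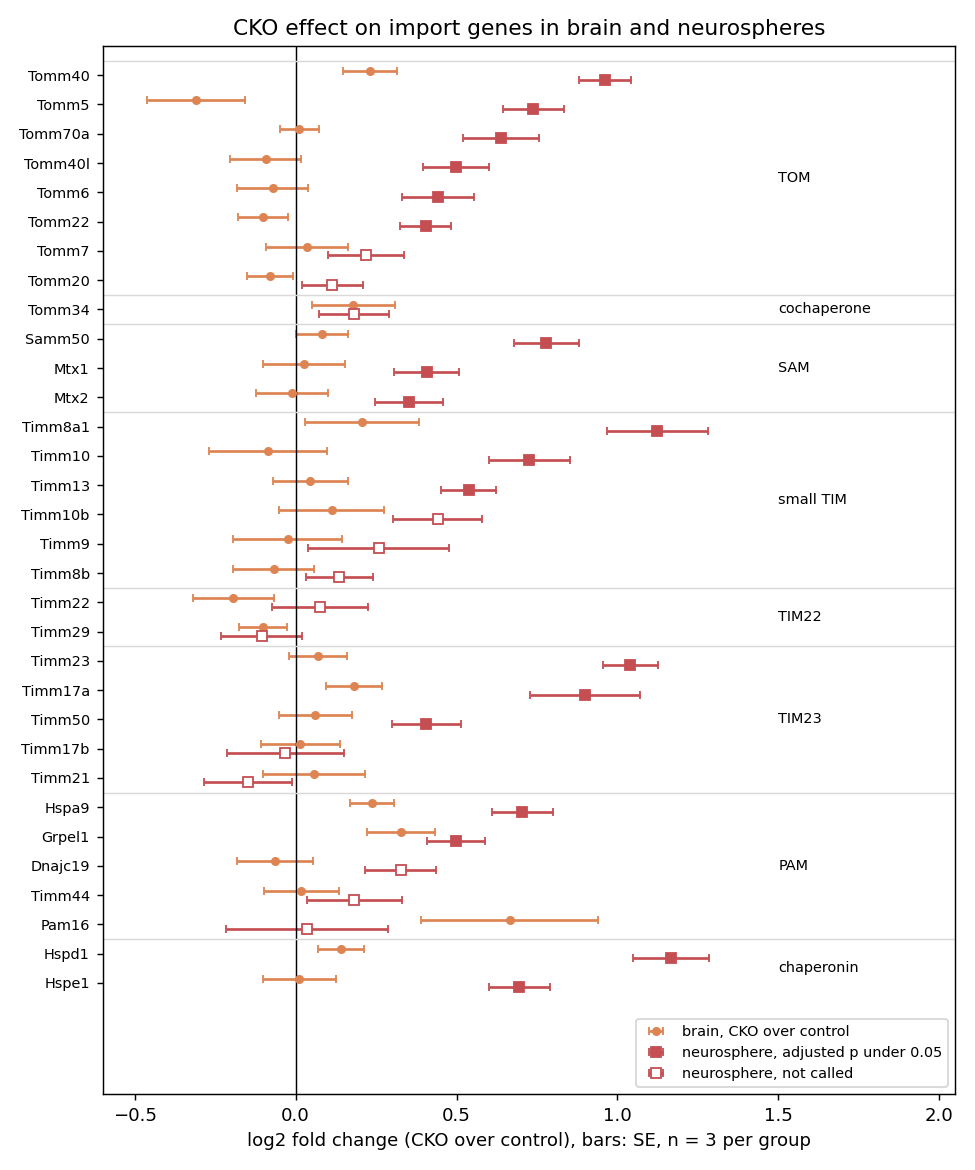
Log2 fold change of CKO over control (horizontal axis, bars are SE) for the 32 tested import genes, grouped by complex, in brain (circles) and neurospheres (squares, filled where the adjusted p was under 0.05). The neurosphere values reach 1.17 for Hspd1 and 19 are filled, whereas brain values lie between -0.31 and 0.67 and none was called.

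At the outer membrane the channel rose, and the receptor Tomm20 did not pass the test. Tomm40, the channel itself, measured 66.2, 61.6 and 61.5 CPM in control neurospheres and 126.2, 124.4 and 117.7 in CKO. All CKO libraries lay far above all controls, and the log2 fold change was 0.96 ± 0.08 (edgeR adjusted p = 0.00754). Tomm20, the receptor for leader peptides, measured 168, 196 and 175 CPM in controls and 207, 189 and 188 in CKO. Those groups overlapped and the change of 0.11 ± 0.09 did not pass the test (adjusted p = 0.384), although with junction reads it did (0.45; adjusted p = 0.0169). Tomm22, the central receptor that holds the complex together, went from 66.6, 72.1 and 69.4 CPM to 91.6, 89.8 and 94.1, with no overlap (0.40 ± 0.08; adjusted p = 0.0175). Tomm70a, the receptor for carriers and other proteins delivered by cytosolic chaperones, went from 144.3, 118.6 and 124.5 CPM to 222.7, 197.8 and 182.6. Its CKO libraries were all higher, by 0.64 ± 0.12 (adjusted p = 0.0154), with the number 1 library the highest of each group.

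Among the small subunits of TOM, Tomm5 measured 25.7, 28.6 and 29.1 CPM in controls and 46.8, 46.1 and 46.5 in CKO. Its CKO libraries lay close together above the controls, and it rose by 0.74 ± 0.10 (edgeR adjusted p = 0.00924). Tomm6 and the second channel form Tomm40l rose by 0.44 and 0.50, and Tomm7 differed by 0.22 without passing the test. Only 1.84% of the Tomm6 exon reads in neurospheres were uniquely placed, and with unique reads its call was lost (0.27; adjusted p = 0.603), so its value is uncertain. Tomm40l had 60.9% unique reads and overlaps Nr1i3. Tomm34, the cytosolic cochaperone, differed by 0.18 ± 0.11 (adjusted p = 0.239).

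All 3 SAM genes passed the test, and Mtx2 only just. Samm50, the barrel at the centre of that complex, measured 93.0, 76.0 and 80.5 CPM in control neurospheres and 147.1, 143.6 and 137.3 in CKO, a log2 fold change of 0.78 ± 0.10 (edgeR adjusted p = 0.00924). The lowest CKO library was well above the highest control. The metaxins Mtx1 and Mtx2, which sit on the cytosolic face of SAM, rose by 0.41 and 0.35, and Mtx2 was the called member closest to the threshold (adjusted p = 0.0498). Both lost the call with junction reads, at 0.38 and 0.19 (adjusted p = 0.0945 for Mtx1 and 0.233 for Mtx2). Mtx2 also lost it with RLE size factors (0.35; adjusted p = 0.0505), with library size alone (0.30; 0.0937) and with no filter on low counts (0.36; 0.0606).

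Of 6 small TIM chaperones, 3 rose. Timm8a1, the mouse counterpart of the human gene altered in deafness-dystonia syndrome, measured 25.0, 20.4 and 19.2 CPM in controls and 54.6, 44.2 and 41.8 in CKO, and rose by 1.12 ± 0.16 (edgeR adjusted p = 0.0102). Its partner Timm13 measured 67.4, 66.4 and 68.6 CPM in controls and 90.8, 102.4 and 100.7 in CKO (0.54 ± 0.09; adjusted p = 0.0121). Both sets of libraries were apart, and the control values of Timm13 were nearly equal. Timm10 went from 14.6, 12.8 and 13.8 CPM to 24.5, 22.7 and 21.0, a rise of 0.73 ± 0.13 (adjusted p = 0.0139). Timm9, which forms a ring with Timm10, measured 19.4, 17.5 and 17.3 CPM in controls and 28.8, 19.3 and 16.6 in CKO, with overlapping groups and 1 high library, CKO 1 (0.26 ± 0.22; adjusted p = 0.398). Timm8b differed by 0.14 and Timm10b by 0.44, and neither passed the test.

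In the inner membrane, the TIM23 channel rose and the TIM22 channel did not pass the test. Timm23, the channel for proteins with leader peptides, measured 64.6, 58.5 and 57.5 CPM in control neurospheres and 125.6, 124.3 and 121.6 in CKO, a log2 fold change of 1.04 ± 0.08 (edgeR adjusted p = 0.00754). The CKO libraries were within a few CPM of each other and all above the controls. Timm22, the channel for carriers, measured 25.7, 35.9 and 32.1 CPM in controls and 30.9, 32.2 and 35.6 in CKO. Its groups overlapped, with a difference of 0.08 ± 0.15 (adjusted p = 0.722), and Timm29, a further TIM22 subunit, differed by -0.11 (adjusted p = 0.554).

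Timm17a and Timm17b encode alternative partners of Timm23, and of the pair Timm17a passed the test. Timm17a measured 53.1, 35.9 and 38.6 CPM in controls and 87.3, 79.2 and 71.3 in CKO, a rise of 0.90 ± 0.17 (edgeR adjusted p = 0.0167). Timm17b measured 37.4, 37.2 and 44.8 CPM in controls and 29.4, 42.0 and 45.3 in CKO (-0.03 ± 0.18; adjusted p = 0.909), with control 3 and CKO 3 close and CKO 1 lowest. Per exon length, the ratio of Timm17a to Timm17b was 0.446, 0.303 and 0.271 in control neurospheres and 0.932, 0.592 and 0.494 in CKO neurospheres. Each CKO ratio was above every control ratio. In brain the ratio was 0.526, 0.583 and 0.656 in controls and 0.728, 0.634 and 0.615 in CKO, where the groups overlapped.

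Timm50, the receptor that takes proteins over from TOM, went from 43.5, 50.1 and 54.8 CPM to 64.7, 67.0 and 65.1 (0.41 ± 0.11; edgeR adjusted p = 0.0363), a call lost with junction reads (0.40; adjusted p = 0.0514) and with no filter (0.41; 0.0515). Timm21, which links TIM23 to TOM and the respiratory chain, had the lowest log2 fold change of the members, -0.15 ± 0.14 (adjusted p = 0.435).

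**Figure D2:**
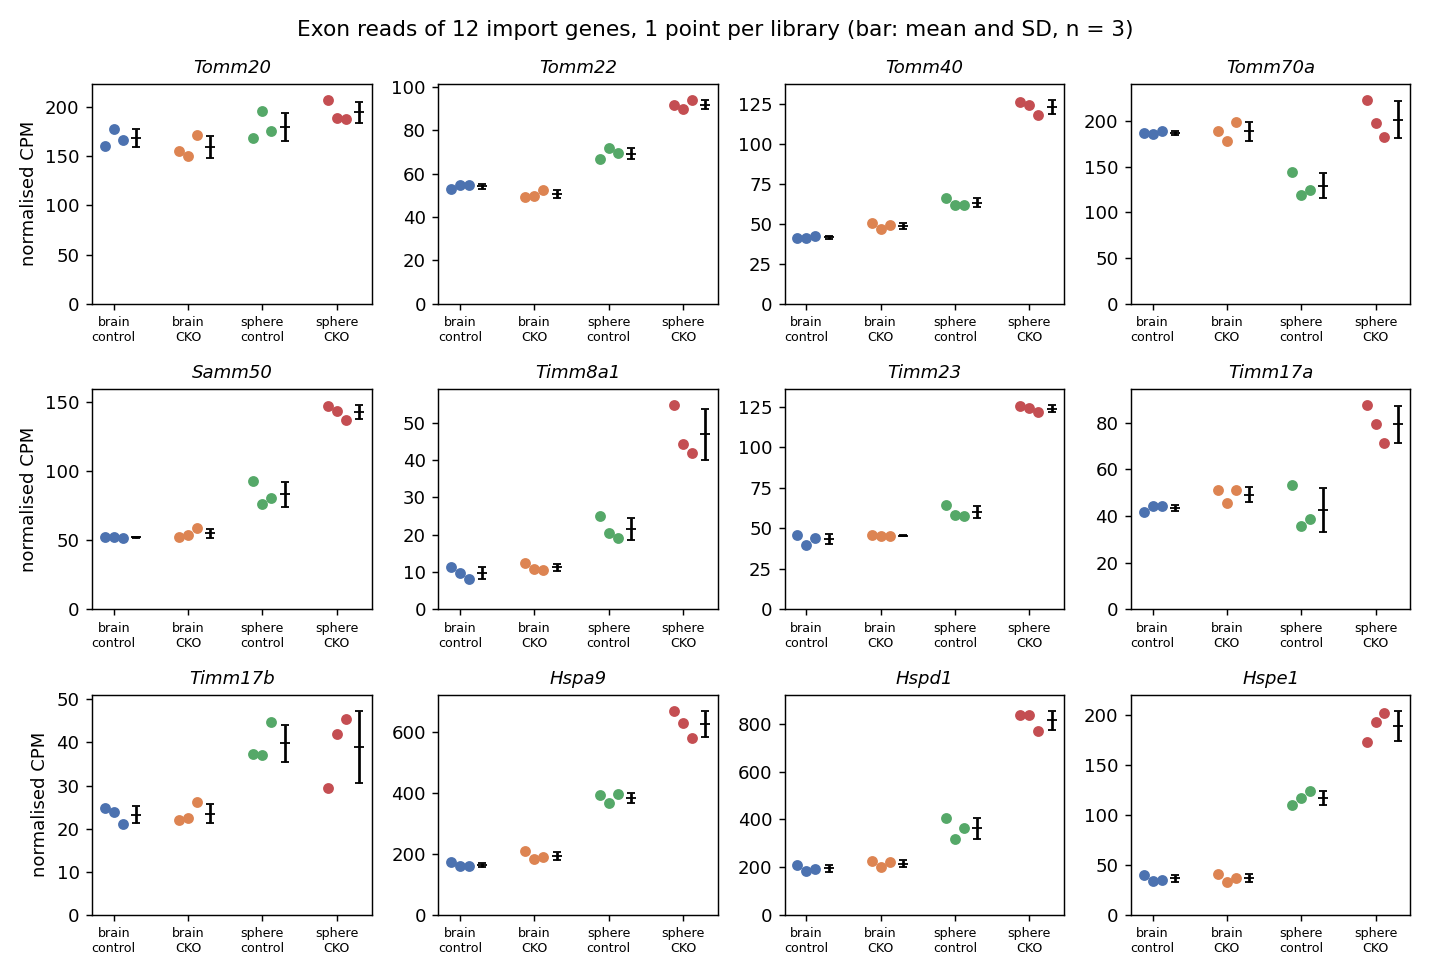
Normalised CPM (vertical axis, from 0) of 12 import genes in each library, by group, with the mean and SD (n = 3) beside the points. CKO neurospheres stand above control neurospheres for Tomm22, Tomm40, Tomm70a, Samm50, Timm8a1, Timm23, Timm17a, Hspa9, Hspd1 and Hspe1, while the points of Tomm20 and Timm17b overlap.

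In the motor, Hspa9, the Hsp70 of the matrix, measured 393, 366 and 396 CPM in control neurospheres and 669, 630.1 and 583 in CKO, without overlap (0.70 ± 0.09; edgeR adjusted p = 0.00959). Grpel1, which makes Hspa9 exchange its nucleotide, went from 37.8, 40.4 and 39.8 CPM to 55.2, 53.1 and 58.3, a rise of 0.50 ± 0.09 (adjusted p = 0.0147). The 3 other parts of the motor did not pass the test.

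Timm44, which tethers Hspa9 to the channel, measured 67.0, 48.4 and 49.3 CPM in controls and 58.1, 64.0 and 64.7 in CKO (0.18 ± 0.15; edgeR adjusted p = 0.377), and control 1 was its highest library. Dnajc19, a J-domain protein of the motor, went from 21.1, 21.4 and 23.7 CPM to 27.4, 26.4 and 29.2 without overlap (0.33 ± 0.11; adjusted p = 0.0676), and passed the test with junction reads (0.49; adjusted p = 0.0278). Pam16, the partner that restrains that type of J-domain protein in yeast, measured 16.2, 10.8 and 9.67 CPM in controls and 11.7, 15.3 and 10.4 in CKO (0.04 ± 0.25; adjusted p = 0.927). Only 8.09% of the Pam16 exon reads in neurospheres were uniquely placed, from 134 to 278 exon reads a library, so its value is uncertain.

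Both chaperonin genes rose. Hspd1, the Hsp60 barrel subunit, measured 405, 318 and 365 CPM in controls and 838, 836 and 768 in CKO, the largest log2 fold change of the members at 1.17 ± 0.12 (edgeR adjusted p = 0.00795). Hspe1, the lid of that barrel, measured 110.5, 116.6 and 123.9 CPM in controls and 173, 193 and 202 in CKO (0.70 ± 0.10; adjusted p = 0.00985). Both sets of CKO libraries were above all controls. Of the Hspe1 exon reads in neurospheres 60.0% were uniquely placed, and the rise also passed the test with unique reads alone.

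The calls of the members depended on which library was left out. With each library left out in turn, 0 of the 19 called members changed sign. For all 19 every CKO library lay above every control, so leaving out 1 library could hardly turn a sign. The kept direction is therefore no separate support. The number of members called higher was 21 without control 1, 8 without control 2, 17 without CKO 1 and 12 without CKO 3. The calls over all genes moved with it, as 2850, 532, 1598 and 855 genes were higher in these fits, against 1958 with all libraries. It was 0 without control 3 and 0 without CKO 2, where 19 and 21 members were higher at an unadjusted p under 0.05 and 0 of all genes tested were called. With all libraries kept, 21 members were higher at that p, against 22.3% of all genes. The share of all genes at that p was not counted without control 3 or without CKO 2. Hspa9, Hspd1, Hspe1, Samm50, Timm23, Timm8a1, Tomm40 and Tomm5 were the 8 members called in 4 of these 6 fits. Without control 1 and CKO 1 together, 22 members were called higher, in a fit that called 3740 of all genes higher and 3633 lower. The authors' deposited table called 12 members higher in CKO neurospheres and 0 lower, all 12 among the 19 called here. That table rests on the same libraries, so it is not separate support, and the share of all genes it called was not counted.

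Other cell type markers moved in the same libraries. All 7 proliferation markers rose in CKO neurospheres, their summed level going from 515 to 1290 CPM in controls to 2430.0 to 2491 in CKO. Of 6 neuron markers 4 fell (1635 to 1984 CPM summed in controls, 898 to 1365 in CKO), and of 6 oligodendrocyte lineage markers 3 fell (1797 to 2413, then 1511 to 1687). Among the oligodendrocyte lineage markers Olig1 and Olig2 went the other way, at 0.28 and 0.32 (log2 fold changes, not called). Neural stem cell and radial glia markers summed to 6568 to 7652 CPM in controls and 7945 to 8410.0 in CKO, with 0 of 7 called. In that list Nes (1.26) and Vim (0.63) were positive. Sox2, Pax6, Fabp7, Hes5 and Slc1a3 were negative, and the median was -0.34. Astrocyte markers summed to 794 to 2882 CPM in controls and 353 to 1069 in CKO, with 1 of 4 lower. Pericyte and fibroblast markers summed to 16.5 to 58.3 CPM in controls and 50.3 to 1359 in CKO, with 1 of 4 higher. Without control 1 and CKO 1, 2 of the 7 radial glia markers rose and 5 fell, 6 of 6 neuron and 3 of 4 astrocyte markers fell, and 0 of 4 pericyte and fibroblast markers were called. In that fit 1 of the 6 oligodendrocyte lineage markers rose (Olig1) and 3 fell. Endothelial and microglial markers were at most 7.79 and 1.21 CPM in any neurosphere library, and the haemoglobin gene Hbb-bt was at 0. The part of these shifts in the import gene result was not tested.

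Other mitochondrial and chaperone genes were read from fixed lists, whose counts stand against the 14.7% of all genes called higher. Of 14 genes of mitochondrial membranes and mass, 10 rose and 0 fell in CKO neurospheres, with the outer membrane pore Vdac2 at 0.85 ± 0.19, the cristae organiser Immt at 0.71 ± 0.08 and the prohibitin Phb at 0.68 ± 0.08 (log2 fold changes; edgeR adjusted p = 0.0244, 0.00847 and 0.00852). Of 17 other import and processing factors, 4 (23.5%) passed the test as higher, a share not far above that of all genes, and 0 as lower. They were led by Chchd4, the oxidase that traps small TIMs (0.92 ± 0.18), and the leader peptidases Mipep (0.65 ± 0.12) and Pmpca (0.53 ± 0.11). Of 11 mitochondrial proteases and matrix chaperones, 6 rose and 0 fell, among them Spg7 (0.61), Afg3l2 (0.48) and Htra2 (0.47). These calls were less stable: 1 was left with junction reads (Spg7), 3 with library size alone and 4 with a replicate block. Without CKO 3 there was 1 (Afg3l2) and without control 2 there were 0.

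Of 11 cytosolic chaperones, which keep precursors unfolded before import, 7 rose and 0 fell, with Stip1 at 0.85 ± 0.08, Hspa4 at 0.75 ± 0.10 and Hsp90aa1 at 0.54 ± 0.14 (edgeR adjusted p = 0.00795, 0.00959 and 0.0326). Of 7 genes tied to the stress factor ATF4, 1 rose in neurospheres, Atf4 itself (0.46 ± 0.11). The median log2 fold changes were 0.51 for membrane and mass genes, 0.18 for other import factors, 0.36 for proteases, 0.44 for cytosolic chaperones and -0.34 for ATF4-linked genes.

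The second comparison asks the same of whole brain. In CKO brain 0 of 32 members were called higher and 0 lower by edgeR, where 0.243% and 0.199% of 13557 genes tested were, and DESeq2 also called 0. At an unadjusted p under 0.05, 4 members were higher and 0 lower by edgeR (4.24% and 4.51% of all genes) and 2 were higher by DESeq2. The share of all genes at that p was not counted for DESeq2. The median log2 fold change was 0.02, against 0.00 over all genes, and the SE of single members ranged from 0.06 to 0.27.

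The member with the lowest p in brain was Hspa9, at 172, 159 and 162 CPM in controls and 209, 183 and 188 in CKO (0.24 ± 0.07; edgeR adjusted p = 0.246). Grpel1, its exchange factor, measured 32.5, 31.2 and 30.7 CPM in controls and 43.7, 38.7 and 36.0 in CKO (0.33 ± 0.11; adjusted p = 0.331). Tomm40 measured 41.1, 41.0 and 42.6 CPM in controls and 50.4, 46.8 and 49.2 in CKO (0.23 ± 0.08; adjusted p = 0.421). For these 3 genes, and for Timm17a, the CKO libraries lay above all controls. Timm22, Timm29, Tomm22 and Tomm5 lay below all controls among tested members. That is 4 members on each side, where 7.24% and 7.16% of all genes did not overlap.

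None of the members that rose in neurospheres passed the test in brain. Timm23 measured 45.8, 39.9 and 44.1 CPM in control brain and 45.6, 45.5 and 45.3 in CKO brain (0.07 ± 0.09; edgeR adjusted p = 0.901). Hspd1 measured 209, 182 and 191 CPM in controls and 225, 199 and 219 in CKO (0.14 ± 0.07; adjusted p = 0.648), and Hspe1 40.3, 34.2 and 35.1 against 40.7, 33.1 and 37.0 (0.01 ± 0.11; adjusted p = 0.991). All 3 overlapped between groups. Pam16 had the largest value of the members, 0.67 ± 0.27 (adjusted p = 0.507), on 28 to 82 exon reads a library of which 8.64% were uniquely placed. Of the mitochondrial, chaperone and stress lists, only the ATF4-linked genes had calls in brain, with 4 of 7 higher, among them Chac1 (2.75 ± 0.34), Sesn2 (1.36 ± 0.16) and Asns (0.94 ± 0.13). These calls rest on few libraries: 1 of the 7 was called without control 1 (Sesn2), 2 without CKO 3 and 0 without control 3 or in the fit of all 12 libraries, which called 2 and 1 of all genes higher. Among the marker lists in brain, 1 of 7 radial glia markers and 2 of 3 tested astrocyte markers fell, and the astrocyte markers summed to 76.1 to 96.3 CPM in controls and 39.0 to 48.1 in CKO. The radial glia marker, Fabp7, was also lower with any 1 brain library left out, while 0 astrocyte markers were called without control 2 or control 3, 1 without control 1 or CKO 3, and neither list had a call in the fit of all 12 libraries. Neuron markers summed to 5438 to 5766 CPM in control brain and 4914 to 5214 in CKO brain, without overlap. Microglial markers summed to 38.8 to 47.7 and 53.0 to 69.5, also without overlap, and 0 genes of either list were called in the main fit. The part of these marker shifts in the member values was not tested.

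The outer membrane members in brain had small differences of either sign. Tomm20 measured 160.1, 178 and 166 CPM in control brain and 155, 150.7 and 172 in CKO brain (-0.08 ± 0.07; edgeR adjusted p = 0.85), with overlapping groups. Tomm70a measured 187, 185 and 189 CPM in controls and 189, 178 and 199 in CKO (0.01 ± 0.06; adjusted p = 0.982), a spread that covers both groups. Tomm22 measured 52.9, 55 and 54.8 CPM in controls and 49.1, 50 and 52.6 in CKO (-0.10 ± 0.08; adjusted p = 0.807). Its CKO libraries were all lower, by less than the threshold could call. Samm50 measured 52.0, 52.3 and 51.7 CPM in controls and 52.3, 54.1 and 58.7 in CKO (0.08 ± 0.08; adjusted p = 0.864), with CKO 3 the highest.

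Among the small TIMs in brain, Timm8a1 measured 11.2, 9.76 and 8.20 CPM in controls and 12.4, 10.9 and 10.4 in CKO (0.21 ± 0.18; edgeR adjusted p = 0.846), and the groups overlapped. Timm13 measured 27.1, 22.9 and 24.6 CPM in controls and 24.0, 25.9 and 27.3 in CKO (0.05 ± 0.12; adjusted p = 0.957). Timm10, at 40 to 53 exon reads a library, measured 8.04, 7.98 and 7.41 CPM in controls and 7.55, 7.55 and 6.95 in CKO (-0.09 ± 0.18; adjusted p = 0.941). Its partner Timm9 had the wider spread, at 18.7, 21.3 and 15.3 CPM in controls and 22.0, 15.7 and 16.5 in CKO (-0.03 ± 0.17; adjusted p = 0.987). These genes overlapped between the brain groups.

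In the inner membrane of the brain libraries, Timm17a measured 41.7, 44.2 and 44.1 CPM in controls and 50.9, 45.5 and 51.1 in CKO, apart but not called (0.18 ± 0.09; edgeR adjusted p = 0.610). Its alternative Timm17b measured 24.9, 23.8 and 21.1 CPM in controls and 22.0, 22.5 and 26.1 in CKO (0.01 ± 0.12; adjusted p = 0.990). Timm22, the carrier channel, measured 22.7, 23.1 and 27.1 CPM in controls and 19.2, 22.5 and 22.1 in CKO (-0.19 ± 0.13; adjusted p = 0.755). The lowest Timm22 control lay just above the highest CKO library. Timm50, the receptor of TIM23, measured 35.8, 33.9 and 30.7 CPM in controls and 38.8, 31.8 and 34.2 in CKO (0.06 ± 0.11; adjusted p = 0.935).

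For the motor, Timm44 measured 28.7, 24.0 and 25.4 CPM in control brain and 25.7, 28.0 and 25.4 in CKO brain (0.02 ± 0.12; edgeR adjusted p = 0.986). Dnajc19 measured 28.4, 25.0 and 27.3 CPM in controls and 28.5, 23.8 and 25.0 in CKO (-0.06 ± 0.12; adjusted p = 0.933). Pam16 measured 7.28, 9.23 and 4.41 CPM in controls and 14.1, 10.3 and 8.69 in CKO. All of these overlapped, and control 3 and CKO 1 were the extremes of Pam16.

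The third comparison tests whether the CKO effect itself differed between neurospheres and brain. In 1 edgeR fit of all 12 libraries, the effect was higher in neurospheres for 15 of 32 members (46.9%) and lower for 0, against 7.21% and 6.06% of 14415 genes tested. That fit uses 1 spread estimate per gene for both tissues, and the p-values of the difference rest on it. Replicates differed by 3.12 to 6.14 chi-square units per degree of freedom in brain and 5.72 to 57.8 in neurospheres. For CKO brain the same fit called 1 gene higher, against 33 with brain fitted alone. For CKO neurospheres it called 2935, against 1958 alone. All 15 were among the 19 that rose in neurospheres. They were 6 of 8 TOM subunits, Samm50 of the 3 SAM subunits, 3 of 6 small TIMs, 2 of 5 TIM23 subunits, Hspa9 of the 5 PAM subunits and both chaperonin genes, with 0 of 2 TIM22 subunits. The difference of log2 fold changes was 1.05 ± 0.16 for Tomm5 (adjusted p = 0.00463), 1.03 ± 0.14 for Hspd1 (0.00301), 0.98 ± 0.11 for Timm23 (0.00221) and 0.74 ± 0.10 for Tomm40 (0.00301). For Tomm5 the brain side of that difference was 16.8, 15.6 and 13.1 CPM in controls and 12.2, 11.7 and 12.9 in CKO (-0.31 ± 0.15; adjusted p = 0.624). Grpel1, Mtx1, Mtx2 and Timm50 were called in neurospheres but not for the difference, with adjusted p from 0.102 to 0.363. The CKO of brain and of neurospheres also differ in embryonic day, in culture and in the fall of Atp6ap2, which cannot be told apart here.

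Leaving out 1 library at a time gave 9 to 15 members with a higher effect in neurospheres. The lowest count, 9, came without brain control 1 and without brain CKO 2, and Hspd1, Hspe1, Samm50, Timm10, Timm23, Tomm22, Tomm40, Tomm5 and Tomm70a were called in all 12 fits. With reads across exon junctions in place of all exon reads, 6 members were called. All of these fits share 1 spread estimate per gene between the tissues, and their calls over all genes are not given here.

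The fourth comparison sets control neurospheres against control brain. Of 32 members 25 were higher in neurospheres (78.1%) and 1 was lower, where 34.9% and 35.5% of all genes tested were called, and the median log2 fold change was 0.76 against -0.01 over all genes. These controls also enter the comparisons above. Hspe1 stood highest at 1.83 ± 0.10 (edgeR adjusted p = 5.96e-08), followed by the small TIM Timm13 at 1.59 ± 0.09 (7.61e-08), the TOM stabiliser Tomm7 at 1.49 ± 0.13 (1.24e-06) and Hspa9 at 1.38 ± 0.08 (7.69e-08). Uniquely placed reads were 75.9% of the Hspe1 exon reads in brain and 60.0% in neurospheres. With such reads alone Hspe1 was at 1.53, below the 1.59 of Timm13, so its first place is uncertain. By complex, 7 of 8 TOM subunits, 2 of 3 SAM, 4 of 6 small TIM, 1 of 2 TIM22, 4 of 5 TIM23 and 4 of 5 PAM subunits were higher, as were both chaperonin genes and Tomm34. Tomm70a was the exception, at -0.38 ± 0.09 (adjusted p = 0.00296). Tomm20 was higher by 0.25 ± 0.09 (adjusted p = 0.0224), a call lost with library size alone (0.13; adjusted p = 0.188) and without brain control 1 (0.0638), brain control 3 (0.0544) or neurosphere control 2 (0.103). Neuron markers summed to 5438 to 5766 CPM in control brain and proliferation markers to 958 to 1252. Whole tissue and cultured spheres differ in cell types, embryonic day and intron share, which cannot be told apart from the tissue difference.

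The read class mattered for some members of that comparison. Dnajc19 did not pass the test by exon reads (-0.13; edgeR adjusted p = 0.267) and was higher in neurospheres by junction reads (0.94; adjusted p = 7.53e-05), and junction reads made up 17.9% of its exon reads in brain and 49.2% in neurospheres. Timm17a likewise moved from 0.12 to 1.09, with junction shares of 15.3% and 36.6%, and Timm10b from 0.31 to 1.32, with 13.6% and 27.4%. With uniquely placed reads Timm10b was at -0.27 and not called, so its read classes differ in sign. Such reads were 80.0% of its exon reads in brain and 54.0% in neurospheres. Timm29, with 1.5% and 3.61%, was at 0.11 by exon reads and higher by a further 0.97 with junction reads (adjusted p = 0.00536 by junction reads). Tomm5 and Pam16 lost their calls with junction reads, going from 1.03 to 0.54 and from 0.96 to 0.76 (adjusted p = 0.105 and 0.086). In contrast Tomm70a stayed lower by junction reads, at -0.44. Brain libraries held many more reads outside exons, and the part of such reads in these exon counts was not tested.

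**Figure D3:**
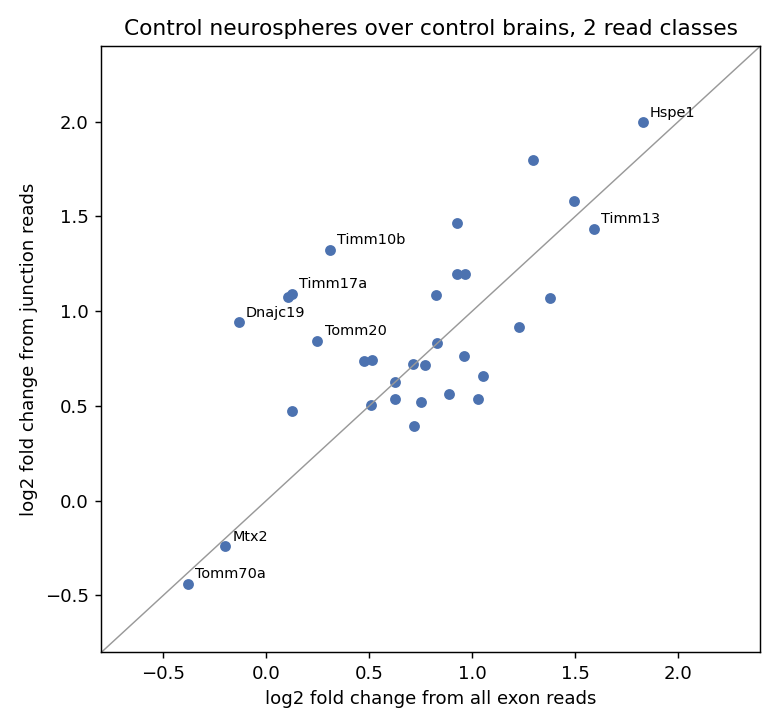
Log2 fold change of control neurospheres over control brains for 32 import genes from all exon reads (horizontal axis) and from junction reads alone (vertical axis), with the line of equal values. Most points follow the line, while Dnajc19, Timm10b, Timm17a and Timm29 lie well above it and Tomm70a and Mtx2 are below 0 on both axes.

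Levels between genes were compared as RPKM, which divides by library size and exon length, and the chaperones came first. In control brain the order was led by Hspd1 at 69.8 ± 4.98 RPKM (SD, n = 3), Hspa9 at 51.2 ± 2.23, Timm8b at 50.3 ± 4.99 and Hspe1 at 44.9 ± 4.12. Hspa9 and Timm8b did not differ beyond their spread. In control neurospheres Hspe1 came first at 159.5 ± 10.2, before Hspd1 at 145 ± 16.5 and Hspa9 at 133 ± 5.50, and the ranges of Hspe1 and Hspd1 overlapped. Only 60.0% of the Hspe1 exon reads in neurospheres were uniquely placed, so its place in this order is uncertain. CKO neurospheres had Hspd1 at 325 ± 16.6, Hspe1 at 258 ± 19.9, Hspa9 at 217 ± 15.4 and Timm23 at 111.3 ± 2.10. At the other end lay Timm10b in control brain (5.17 ± 0.18), Timm17a in control neurospheres (5.68 ± 1.19) and Dnajc19 in CKO neurospheres (7.28 ± 0.36). The median over the 32 members was 13.6 in control brain, 13.6 in CKO brain, 22.2 in control neurospheres and 33.6 in CKO neurospheres.

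**Figure D4:**
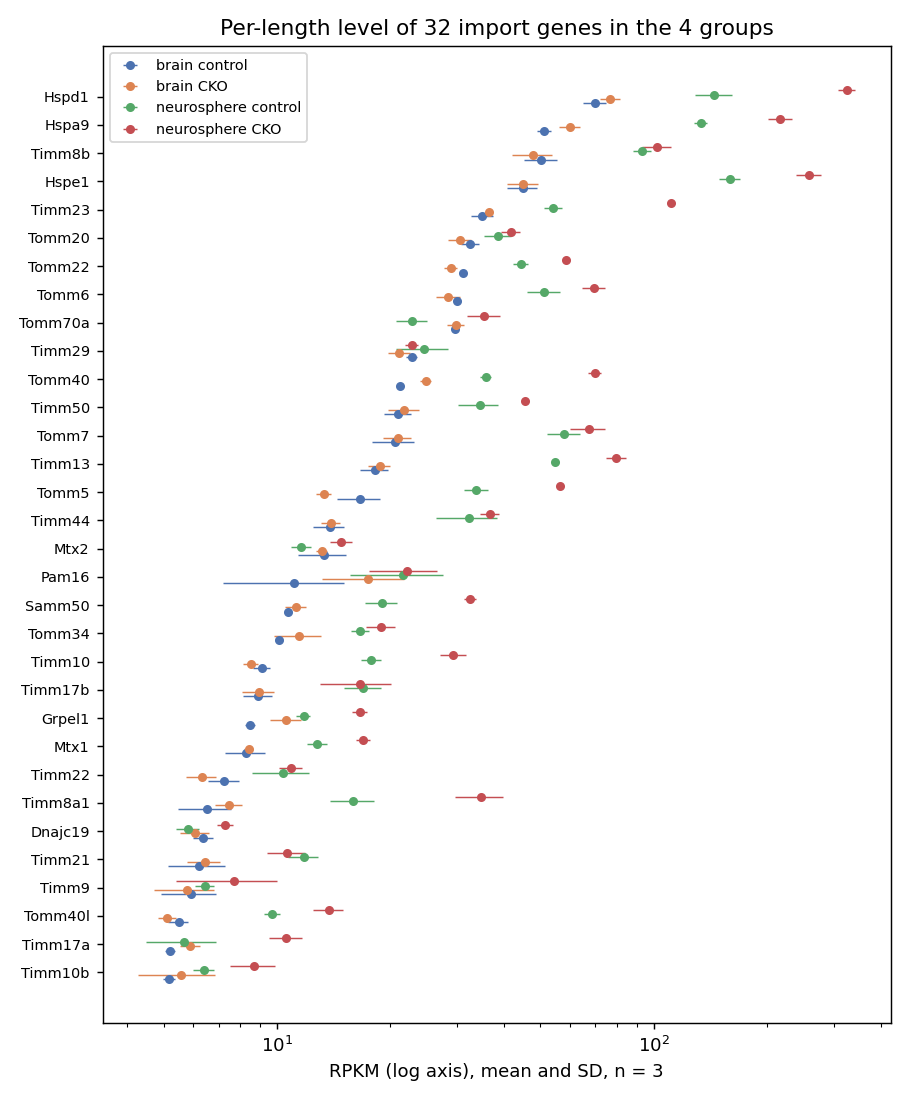
Per-length level in RPKM (log axis; points are means and bars SD, n = 3) of the 32 tested import genes in the 4 groups, ordered by control brain. The brain groups lie on each other for most genes, while control and CKO neurospheres step to the right for most, with Tomm70a lower in control neurospheres than in brain.

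Ratios of partner genes are given per library, with no test. Per length, Timm8a1 over Timm8b was 0.209, 0.163 and 0.146 in control neurospheres and 0.439, 0.316 and 0.281 in CKO, without overlap. Hspd1 over Hspe1 was 1.07, 0.799 and 0.864 in control neurospheres and 1.42, 1.27 and 1.11 in CKO, and 1.52, 1.56 and 1.59 in control brain and 1.62, 1.76 and 1.74 in CKO brain. Tomm40 over Tomm40l was 4.06, 3.57 and 3.46 in control neurospheres and 5.84, 4.86 and 4.66 in CKO, and 3.60, 4.04 and 4.01 in control brain and 4.81, 4.99 and 4.75 in CKO brain. Both ratios were thus higher in CKO without overlap in brain as well, whereas Timm8a1 over Timm8b overlapped there (0.135, 0.133 and 0.118 in controls, 0.189, 0.159 and 0.128 in CKO). In each of these ratios the number 1 library was the highest of both neurosphere groups, and the CKO values lay above all control values. Timm9 over Timm10 went the other way, from 0.365, 0.376 and 0.345 to 0.325, 0.234 and 0.218. In brain, 75.9% of the Hspe1 and 60.3% of the Tomm40l exon reads were uniquely placed. How often the ratios of other gene pairs separate without overlap was not counted.

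**Figure D5:**
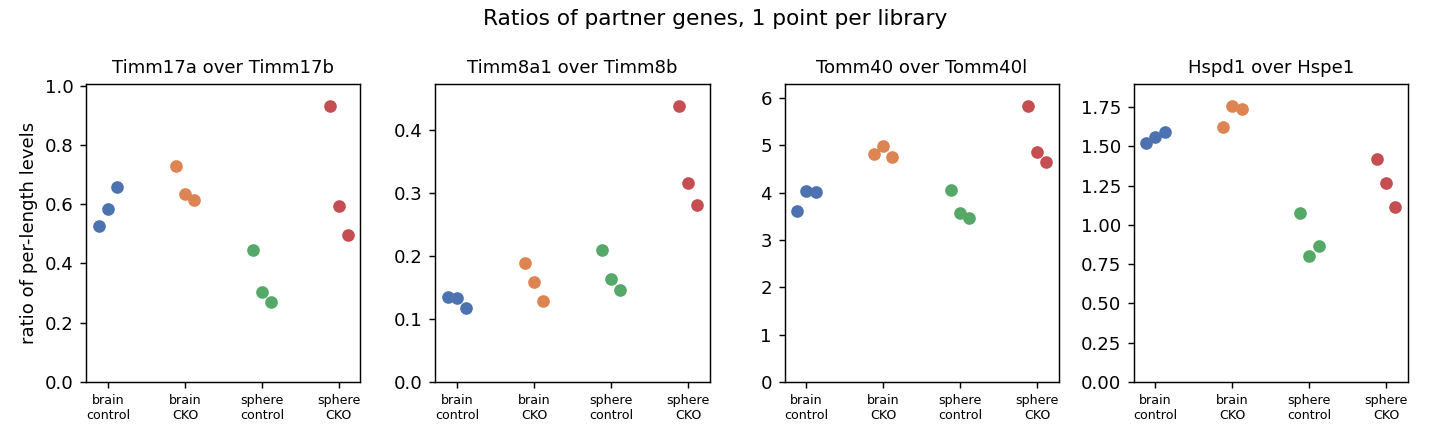
Ratio of per-length levels (vertical axis, from 0) of 4 gene pairs in each library, by group. The CKO neurosphere points lie above the control neurosphere points for all 4 pairs, and Timm17a over Timm17b reaches 0.932 in CKO 1.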

How the data were processed

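Ribosomal RNA was removed and stranded libraries were made, per the labels' protocols. One table per tissue was deposited, holding unscaled counts for each gene (exon, unique exon, junction and intron reads) in each library, per the file headers. GRCm38 and mm10 are named in the submitters' processing notes, and no aligner, annotation release or strand setting is given in the sources used here. Coordinates in the tables do not match the GRCm38 starts of RefSeq and are not printed. The authors' deposited comparison gives a p-value, an FDR-corrected p-value and a signed fold change kept as a score, per the file headers. Another 120 per-sample columns were not used.

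Exon counts were tested in edgeR 4.0.16 (R 4.3.3) with TMM, filterByExpr, robust glmQLFit and a two-sided glmQLFTest, per tissue, and in 1 fit of all 12 libraries for the difference of effects and for the control groups. P-values were adjusted over all genes tested (Benjamini-Hochberg) and called below 0.05. SE is the absolute log2 fold change over the square root of F. On simulated counts of 13366 neurosphere genes with 200 changed 2-fold, 99.5% were recovered, and 4.33% of the calls were unchanged genes. Every simulated gene had the same fixed spread, and only well-counted genes were changed. The simulation lacked the unlike replicates of the real libraries, so it does not tell what share of real changes was found. Alternatives were RLE, library size alone, no filter, unique or junction reads, a replicate block, DESeq2 1.42.0 and leaving libraries out. Motifs were searched in RefSeq windows (GRCm38.p6).

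Members, lists and the rule for named genes were chosen with earlier results of these data known. The rule gave per-library values for up to 14 called members with the lowest adjusted p in each tissue, the 3 lowest in brain and 20 preset members. From other lists it named at most 3 called genes with the largest change in each tissue. Replicates of each group differed by more than counting noise (chi-square over genes with at least 20 reads), and each was counted once. Depth is given as exon reads per library, and reads are not independent molecules.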

Additional observations from a re-analysis of the deposited data

Results flagged for a closer look

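For 15 members the CKO effect differed between neurospheres and brain in a test of that difference, the interaction in 1 edgeR fit of all 12 libraries. In the TOM complex, the log2 effect in neurospheres exceeded that in brain by 1.05 for Tomm5, 0.74 for Tomm40, 0.63 for Tomm70a, 0.60 for Tomm40l, 0.52 for Tomm6 and 0.51 for Tomm22. The difference was 0.70 for Samm50, 0.92 for Timm8a1, 0.82 for Timm10 and 0.50 for Timm13. It was 0.98 for Timm23 and 0.72 for Timm17a in the inner membrane, 0.47 for the motor protein Hspa9, and 1.03 and 0.69 for the chaperonin genes Hspd1 and Hspe1. Adjusted p-values ran from 0.00221 to 0.0392. The Tomm6 value rests on reads that are mostly not uniquely placed.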

How the results depend on the processing

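In neurospheres, 19 members were called higher and 17 to 22 under the other settings that kept all libraries or left out both number 1 libraries, with 0 lower in each. Leaving out 1 library gave 0 to 21 higher. The count in brain was 0 higher and 0 lower under every setting run. For the difference of effects, 15 higher became 9 to 15 without 1 library and 6 with junction reads, which are fewer; the cause was not otherwise tested. Between control groups, 25 higher and 1 lower became 23 to 26 and 1 to 1 without 1 library. Scaling by library size alone, which moved the median of all genes to -0.13, gave 3 lower, with Dnajc19 (-0.26) and Mtx2 (-0.32) added to Tomm70a. By junction reads Dnajc19 turned from -0.13 to 0.94; the cause was not tested. Of 1946 member values over 61 alternative fits this was the 1 that reversed, and a further 88 values, called in neither fit, changed sign. With the replicate number as a block, 17 members were higher in neurospheres (Mtx1 and Mtx2 lost the call), 0 in brain, 15 for the difference and 25 with 1 lower between controls. Same-numbered libraries correlated at 0.41, 0.20 and -0.04 in brain and 0.26, -0.03 and 0.23 in neurospheres. Libraries of unlike number correlated at -0.38 to 0.24 and at -0.33 to 0.22. In brain the block called 108 of all genes higher and 85 lower, against 33 and 27 without it. Whether the numbers mark pairs is thus not settled, and the main fits did not take them as pairs. Low reads limit Pam16 and Timm10 (40 to 53 exon reads a brain library).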
